A study of Arabidopsis thaliana with 4 samples.

Results

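PLETHORA1 (PLT1), PLT2, PLT3, BABY BOOM (BBM), PLT7, WUSCHEL-RELATED HOMEOBOX 5 (WOX5), ROOT MERISTEM GROWTH FACTOR 1 (RGF1), RGF2, RGF3 and UPBEAT1 (UPB1) are regulators of the Arabidopsis root meristem. They were chosen by name, and all 10 loci were found, each on 1 line, among the 26822 gene lines used. RNA-seq had been done on root tips of 5-day-old Col-0 seedlings on agar plates in constant light, with 2 wild-type (WT) libraries and 2 libraries from plants overexpressing the GRAS transcription factor gene SCL28 (SCL28-OX). The overexpressing plants were 1 line, #10, and the promoter driving the transgene was not given in the sources used here. The tissue label is root tip, but the extraction protocol mentions roots. No label says that replicates were grown apart, so each p-value reflects the spread between libraries, which may be technical only.

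PLETHORA proteins are AP2-domain transcription factors that act by dose, high levels keeping stem cells and lower levels allowing division and then expansion. WOX5 is a homeobox factor of the quiescent centre, the group of rarely dividing cells that keeps the surrounding stem cells undifferentiated. RGF peptides are secreted after sulfation by the enzyme TPST, bind the receptor kinases RGI1 to RGI5, and act through the transcription factor RITF1 to widen the PLETHORA domain. UPB1 is a bHLH factor of the transition zone that represses peroxidase genes and so shifts the balance of reactive oxygen species at which division gives way to elongation.

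Levels were the authors' FPKM, fragments scaled to transcript length and to library size. Coordinates are those of the deposited table, whose build is TAIR10 per the submitters' processing notes. SCL28 itself, at chromosome 1, 23399391 to 23401367, was at 6.78 and 7.57 FPKM in WT against 2378.06 and 2300.22 FPKM in SCL28-OX, a ratio of 326 that goes with the labels. The low FPKM values moved in steps that put the depth at 26000000 to 33300000 fragments per library, with 93.1% to 94.9% of 385 to 409 values within 0.1 of a whole fragment. The FPKM of all lines summed to 951429 and 945618 in WT and to 848731 and 849311 in SCL28-OX. Markers of root cap, dividing cells, root hair, endodermis, xylem and quiescent centre were all detected, and no marker was at 0 in all 4 libraries.

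The regulators spanned a wide range of levels. In both genotypes the order by mean FPKM was UPB1, RGF3, PLT3, RGF2, PLT1, PLT2, BBM, WOX5, RGF1 and PLT7. In WT the library values of PLT2 and BBM overlapped, and so did those of BBM and WOX5. In SCL28-OX PLT2 and BBM were the neighbours whose values overlapped.

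**Figure D1:**
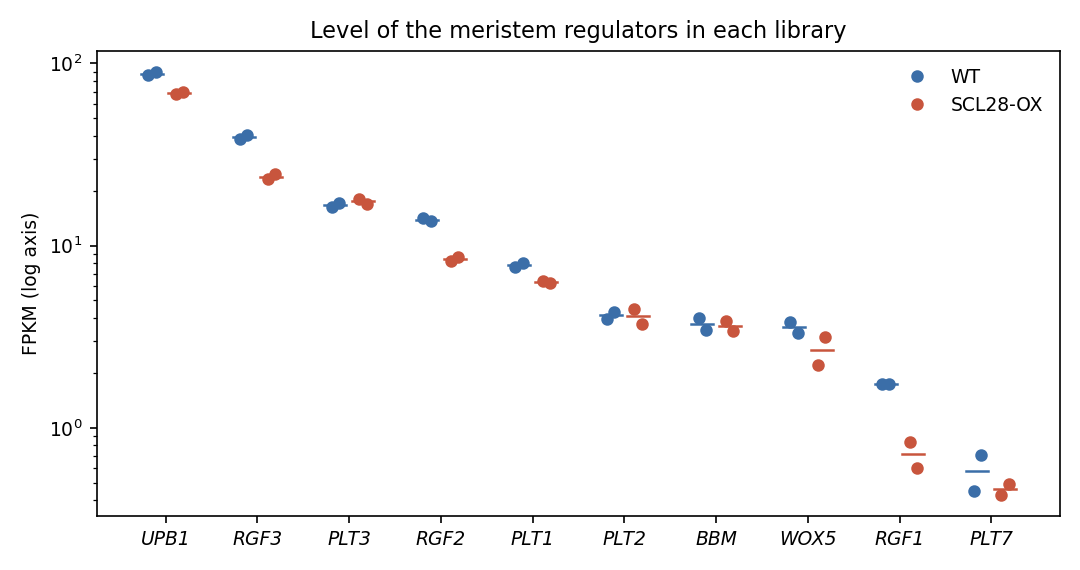
FPKM of each of the 10 regulators on a log axis, with 1 point per library and a line at the mean of each genotype (n = 2). UPB1 lies highest, at 85.93 and 89.91 FPKM in WT, and PLT7 lowest, under 1 FPKM in every library.

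As measured, the RGF ligand genes, UPB1 and PLT1 were lower in SCL28-OX, and no regulator was higher. Corrected for transcript length, as described below, RGF1 and UPB1 were not called and PLT3 was called lower. With GC content as well UPB1 was called higher. Genotypes were compared with limma on log2(FPKM + 1) over 18087 genes whose mean was 1 FPKM or more, with Benjamini-Hochberg adjustment and a threshold of 0.05. This scale understates the change of low genes. Of the 10 regulators 9 reached that mean and 5 of the 9 were called lower, against 33.8% of all tested genes called lower and 32.7% called higher. RGF1 reached the mean only through its WT level, so for that gene some difference was built into the count. The median log2 change of the 9 was -0.33, against -0.01 over all tested genes, and 6 of the 9 had values that did not overlap between genotypes, against 83.6% of all tested genes. In whole root tips, fewer cells of a type and less RNA per cell cannot be told apart.

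**Figure D2:**
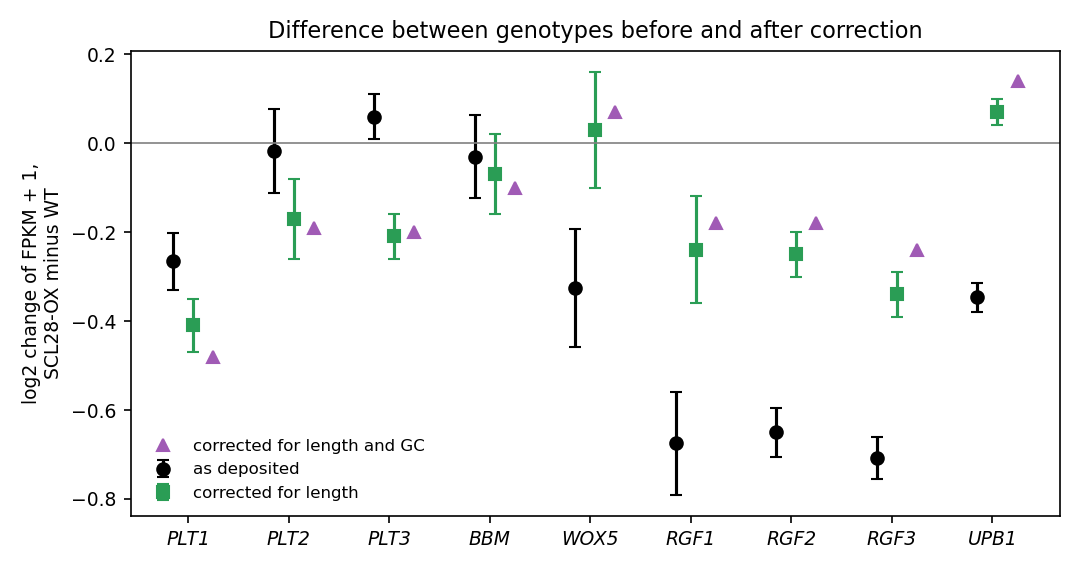
Log2 change of FPKM + 1, SCL28-OX minus WT, for the 9 tested regulators, as measured (as deposited) and after correction for transcript length, with standard errors from limma. RGF3 lies lowest as measured, at -0.71, and PLT1 lies lowest after the correction for length, at -0.41. Triangles, without error bars, show the correction for length and GC content, where PLT1 is lowest too, at -0.48.

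Change across all genes moved with transcript length, which bears on each value given here because the RGF genes, WOX5 and UPB1 are short. Over 17841 genes with a length, Spearman's rho between length and log2 change was 0.681, a description across genes, which are not independent replicates and share the same 4 libraries. When these genes were cut by length into 10 bins of 1784 or 1785 genes, the bin of shortest transcripts, 111 to 747 bases, had a median log2 change of -0.42, and the bin of longest, 2881 to 16368 bases, had 0.48. Each gene's change was therefore also given relative to a smooth trend of change on length, which left rho at -0.0213. After this correction 22.9% of genes were called higher and 22.3% lower, and 4 of the 9 regulators were lower and 0 higher, with a median of -0.21. A further correction for GC content as well gave 20.8% higher and 21.4% lower, with 4 regulators lower and 1 higher. Whether the trend comes from the plants or from the libraries was not tested.

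**Figure D3:**
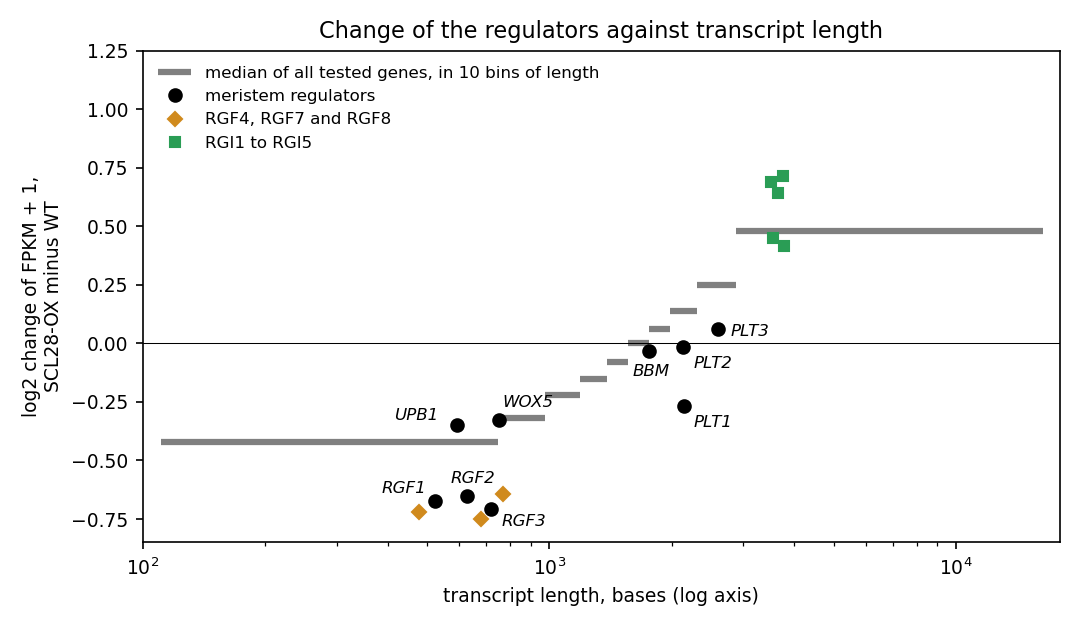
Log2 change of FPKM + 1, SCL28-OX minus WT, against transcript length in bases on a log axis. Grey bars are medians of all tested genes in 10 bins of length, rising from -0.42 to 0.48, black points are the 9 tested regulators, orange diamonds RGF4, RGF7 and RGF8, and green squares RGI1 to RGI5.

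RGF1, RGF2 and RGF3 encode redundant peptide ligands that keep the meristem at its size. Each is made as a short precursor, of 116, 109 and 110 codons respectively, whose last 13 codons before the stop encode the mature peptide. These 39 bases show how alike the ligands are whose genes were all lower as measured, with RGF1 not called after correction for length. They are from RefSeq TAIR10.1 at chr5:24466534-24466572 (minus strand), chr1:4669184-4669222 (plus strand) and chr2:1276902-1276940 (minus strand), with capitals for codons that are identical in all 3 genes.
RGF1: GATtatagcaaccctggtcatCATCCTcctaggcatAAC
RGF2: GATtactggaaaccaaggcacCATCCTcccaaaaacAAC
RGF3: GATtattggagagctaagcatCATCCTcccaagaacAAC
The 3 genes share 4 of 13 codons, while the encoded residues are identical at 7 of 13 positions. RGF2 and RGF3 have 32 of 39 bases in common, against 26 for RGF1 and RGF2 and 27 for RGF1 and RGF3.

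RGF3 (AT2G04025, chromosome 2, 1276777 to 1277734) was at 38.71 and 40.74 FPKM in WT and at 23.07 and 24.80 FPKM in SCL28-OX. Both SCL28-OX libraries lay below both WT libraries, with means of 23.9 ± 1.23 FPKM and 39.7 ± 1.43 FPKM (SD, n = 2), a ratio of 1.66. The log2 change was -0.71 ± 0.05 (SE; limma adjusted p = 9.92e-06). Corrected for length, RGF3 remained lower, at -0.34 (limma adjusted p = 0.00105), and with GC content as well at -0.24 (limma adjusted p = 0.00426). Of the genes in its length bin, 9.75% had a lower change.

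RGF2 (AT1G13620, chromosome 1, 4668443 to 4669471) was at 14.09 and 13.59 FPKM in WT and at 8.26 and 8.66 FPKM in SCL28-OX. The genotypes did not overlap, with means of 13.8 ± 0.349 FPKM in WT and 8.46 ± 0.281 FPKM in SCL28-OX (SD, n = 2), a ratio of 1.64. The log2 change was -0.65 ± 0.06 (SE; limma adjusted p = 3.27e-05), and -0.25 after correction for length (limma adjusted p = 0.00809). Without WT replicate 1 the corrected change was -0.23 and missed the threshold (limma adjusted p = 0.0536). RGF2 overlaps the opposite-strand gene AT1G13630 by 47 bases. That neighbour was at 0.74 to 1.07 FPKM, with higher values in SCL28-OX, and whether the counting used strand was not given in the sources used here.

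RGF1 (AT5G60810, chromosome 5, 24466531 to 24467179) was at 1.74 and 1.75 FPKM in WT and at 0.84 and 0.60 FPKM in SCL28-OX. Both SCL28-OX values lay below both WT values, with means of 0.721 ± 0.165 FPKM and 1.74 ± 0.00637 FPKM (SD, n = 2), a ratio of 2.42. The fit on log2(FPKM + 1) gave -0.68 ± 0.11 (SE; limma adjusted p = 0.00129). Corrected for length the change was -0.24 and missed the threshold (limma adjusted p = 0.134), while with a pseudocount of 0.1 FPKM in place of 1 the corrected change was -0.72 (limma adjusted p = 0.0309). With no minimum level the corrected change was -0.41 and also past the threshold (limma adjusted p = 0.0161). Correction for length and GC content gave -0.18 (limma adjusted p = 0.255), and correction for annotated length -0.21 (limma adjusted p = 0.169), both short of the threshold. With single libraries left out the corrected change ran from -0.34 to -0.13. The fits with the lower pseudocount, no minimum level and annotated length were chosen after seeing the data. RGF1 rested on about 20.6 and 17.3 fragments in WT and 8.4 and 5.6 in SCL28-OX, the fewest of the tested regulators.

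Together the 3 ligand genes summed to 54.5 and 56.1 FPKM in WT and to 32.2 and 34.1 FPKM in SCL28-OX. RGF3 held 71.0% and 72.6% of that sum in WT and 71.7% and 72.8% in SCL28-OX, so its share overlapped between genotypes. The ratio of RGF3 to RGF2, at 2.75 and 3.0 in WT and 2.79 and 2.87 in SCL28-OX, overlapped too.

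Other RGF family genes were lower as well. RGF7 was at 82.86 and 85.06 FPKM in WT and at 48.93 and 52.14 FPKM in SCL28-OX, above every member of RGF1 to RGF3. Its log2 change was -0.72 (limma adjusted p = 3.04e-06) and -0.27 corrected for length (limma adjusted p = 0.000938). RGF8 went from 13.22 and 11.54 FPKM to 7.30 and 6.60 FPKM, which was -0.75 in log2 (limma adjusted p = 0.000101) and -0.37 corrected (limma adjusted p = 0.00771). RGF4, named because it is the remaining one of 3 tested genes, went from 16.67 and 17.65 FPKM to 11.14 and 10.13 FPKM, a log2 change of -0.64. RGF5 was at 1.21 and 0.87 FPKM in WT and 1.05 and 0.72 FPKM in SCL28-OX, under the minimum mean, and RGF6 and RGF9 were listed at 0. Of RGF1 to RGF9, 6 genes were tested and all 6 were lower, against 33.8% of all tested genes. After correction for length 5 of them were lower, against 22.3% of all genes. RGF1, which is among the 6, reached the minimum mean only through its WT level, so some difference was built into this count. Corrected for length RGF1 missed the threshold, and it missed it with GC content as well. It passed with no minimum level or with the lower pseudocount, fits that were chosen after seeing the data. The 6 have transcripts of 478 to 770 bases.

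The RGF receptors went the other way as measured. All 5 of RGI1 to RGI5, leucine-rich repeat receptor kinases with transcripts of 3511 to 3771 bases, were higher in SCL28-OX. Of all tested genes 32.7% were higher, and the bin of longest transcripts, which holds these lengths, had a median log2 change of 0.48. RGI4 was at 21.80 and 21.03 FPKM in WT and at 35.54 and 36.04 FPKM in SCL28-OX, with no overlap between genotypes and a log2 change of 0.72 (limma adjusted p = 3.6e-06). RGI3 was at 15.35 and 15.54 FPKM in WT and at 25.24 and 25.80 FPKM in SCL28-OX, again with no overlap, at a log2 change of 0.69 (limma adjusted p = 6.16e-06). Corrected for length, both remained higher, RGI4 at 0.22 (limma adjusted p = 0.00308) and RGI3 at 0.24 (limma adjusted p = 0.00305). The other receptors missed the threshold. RGI5 was at 0.16, while RGI2, at -0.01, and RGI1, at -0.08, kept no rise. With GC content as well RGI3 was at 0.10 and missed it too (limma adjusted p = 0.0847).

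Downstream of the receptors, RITF1 was lower on both scales. This PLATZ factor, which carries the RGF signal to PLETHORA, was at 34.30 and 34.53 FPKM in WT and at 26.37 and 25.87 FPKM in SCL28-OX. Its log2 change was -0.39 (limma adjusted p = 5.09e-05) and -0.22 corrected for length (limma adjusted p = 0.00194). TPST, the sulfotransferase that activates the peptides, was at 17.16 and 16.86 FPKM in WT and at 15.96 and 17.06 FPKM in SCL28-OX, so the genotypes overlapped (log2 change -0.04, limma adjusted p = 0.489). Of the 9 receptor and signalling genes, 7 were higher and 1 lower, with a median of 0.64, and 4 were higher and 1 lower after correction, with a median of 0.12. Over all tested genes 32.7% were higher and 33.8% lower as measured, and 22.9% and 22.3% after correction. The ligand genes are short and the receptor genes long, and the correction for length brought both nearer to 0.

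**Figure D4:**
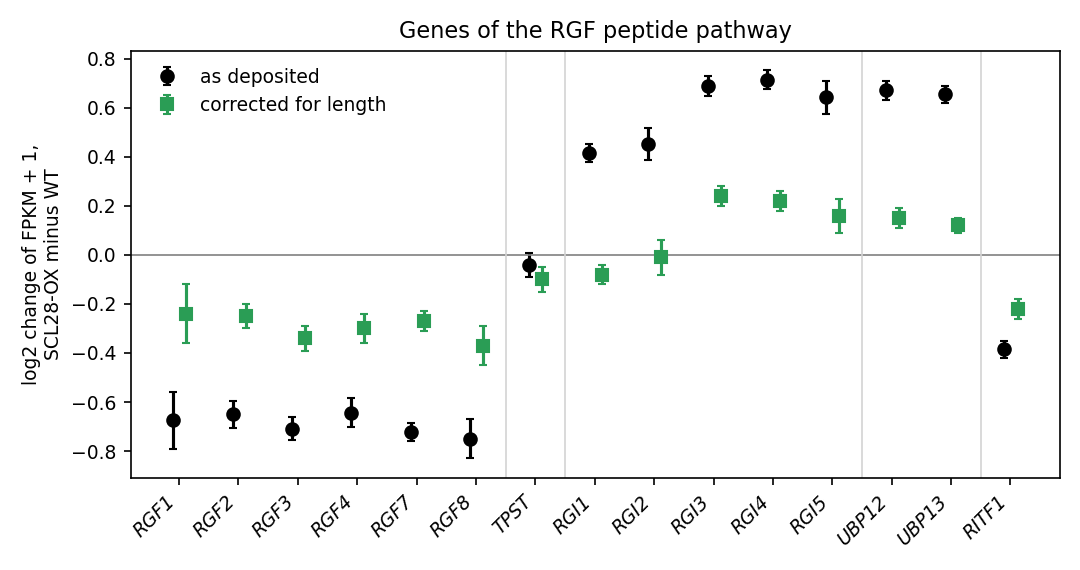
Log2 change of FPKM + 1, SCL28-OX minus WT, for RGF ligand, receptor and signalling genes, as measured (as deposited) and corrected for transcript length, with standard errors from limma as bars. As measured the 6 tested ligand genes lie at -0.64 or lower and the 5 receptors at 0.42 or higher, and after correction RITF1 and 5 ligand genes remain lower.

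The 5 PLETHORA genes encode long proteins, of 498 to 604 codons, and the length trend was between 0.04 and 0.26 at the 4 that were tested. By global alignment PLT1 and PLT2 are identical at 85.2% of residues and PLT3 and PLT7 at 77.9%, while the other pairs lie between 50.1% and 54.9%. As measured, the summed PLETHORA level was 32.4 and 33.6 FPKM in WT and 33.1 and 30.8 FPKM in SCL28-OX, so the genotypes overlapped. This sum was not corrected for length. After that correction 2 of the 4 tested genes were called lower. PLT1 was the member called lower as measured, after correction for length and after correction for length and GC content.

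PLT1 (AT3G20840, chromosome 3, 7300675 to 7303693), which with PLT2 specifies the stem cell niche, was at 7.61 and 8.0 FPKM in WT and at 6.41 and 6.23 FPKM in SCL28-OX. Both SCL28-OX libraries lay below both WT libraries, with means of 6.32 ± 0.13 FPKM and 7.81 ± 0.278 FPKM (SD, n = 2), a ratio of 1.23. The log2 change was -0.27 ± 0.06 (SE; limma adjusted p = 0.00698). Its length of 2137 bases put the trend at 0.15, so the corrected change was larger, at -0.41 (limma adjusted p = 0.00158), and -0.48 with GC content as well (limma adjusted p = 0.000869). PLT1 stayed past the threshold without each library in turn, with corrected values from -0.45 to -0.38. Of the genes in its length bin 2.35% had a lower change.

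PLT2 (AT1G51190, chromosome 1, 18977284 to 18980618), the closest relative of PLT1, was at 3.98 and 4.30 FPKM in WT and at 4.46 and 3.72 FPKM in SCL28-OX. The WT values lay between those of SCL28-OX. The log2 change was -0.02 ± 0.09 (SE; limma adjusted p = 0.881), and -0.17 corrected for length (limma adjusted p = 0.188). The ratio of PLT1 to PLT2 was 1.91 and 1.86 in WT and 1.44 and 1.67 in SCL28-OX, lower in both SCL28-OX libraries, with the difference between the genes not tested.

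PLT3 (AT5G10510, listed as AIL6, chromosome 5, 3315529 to 3320202), which also acts in lateral organ and lateral root formation, was at 16.34 and 17.16 FPKM in WT and at 18.00 and 17.00 FPKM in SCL28-OX. The genotypes overlapped, and the log2 change was 0.06 ± 0.05 (SE; limma adjusted p = 0.326). Set against the trend of 0.26 at its 2600 bases, it came out lower, at -0.21 (limma adjusted p = 0.0139). That call was lost without WT replicate 2, at -0.17 (limma adjusted p = 0.0815), and without SCL28-OX replicate 2, at -0.16 (limma adjusted p = 0.0636). PLT3 overlaps the opposite-strand gene AT5G10520 by 333 bases, and that neighbour was at 8.23 to 10.28 FPKM. PLT3 held 50.5% and 51.0% of the PLETHORA FPKM in WT and 54.3% and 55.1% in SCL28-OX. These shares were not corrected for length, and the trend was higher at PLT3 than at the other tested PLETHORA genes.

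BBM (AT5G17430, chromosome 5, 5742542 to 5745568), a PLETHORA also known for inducing embryos when overexpressed, was at 3.99 and 3.46 FPKM in WT and at 3.84 and 3.41 FPKM in SCL28-OX. The ranges overlapped, and the log2 change was -0.03 ± 0.09 (SE; limma adjusted p = 0.791) as measured. Corrected for length it was -0.07 (limma adjusted p = 0.592). PLT7 (AT5G65510, listed as AIL7, chromosome 5, 26185829 to 26189413) was at 0.45 and 0.71 FPKM in WT and at 0.43 and 0.49 FPKM in SCL28-OX, under the minimum mean. Its values overlapped too, and without the minimum its log2 change was -0.11 ± 0.09 (SE; limma adjusted p = 0.369).

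Of the related AINTEGUMENTA-like genes, ANT, which promotes cell proliferation in shoot organs, was at 1.58 and 1.97 FPKM in WT and 1.45 and 1.97 FPKM in SCL28-OX (log2 change -0.03, limma adjusted p = 0.828). PLT5 was under the minimum mean and AIL1 was listed at 0. Among 6 lines of genes tied to PLETHORA expression, 3 were higher and 0 lower, with a median of 0.20 as measured and the same counts after correction, with a median of 0.16. The shares over all tested genes were 32.7% higher and 33.8% lower as measured, and 22.9% and 22.3% after correction. HAG1, the histone acetyltransferase GCN5 that keeps PLETHORA genes expressed, was at 6.21 and 5.59 FPKM in WT and at 8.43 and 8.60 FPKM in SCL28-OX. It was higher by 0.47 in log2 (limma adjusted p = 0.000645) and by 0.35 after correction for length (limma adjusted p = 0.00519). GRF1, one of the growth factors that act against PLETHORA in the root, went from 21.19 and 23.35 FPKM to 29.81 and 30.92 FPKM, a log2 change of 0.43 (limma adjusted p = 0.00021), on an interval shared with another line.

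Auxin directs PLETHORA expression, and of 15 genes of its synthesis, transport and response 8 were higher and 2 lower, with a median of 0.14. After correction for length 2 were higher and 5 lower, with a median of -0.04. All tested genes were higher in 32.7% and lower in 33.8% of cases as measured, and in 22.9% and 22.3% after correction. PIN3, an auxin efflux carrier of columella and stele, was at 17.93 and 17.53 FPKM in WT and at 25.30 and 25.36 FPKM in SCL28-OX, and 0.24 higher in log2 after correction (limma adjusted p = 0.00273) but 0.08 with GC content as well (limma adjusted p = 0.148). TAA1, an enzyme of auxin synthesis expressed in the quiescent centre, was at 21.87 and 21.70 FPKM in WT and at 17.31 and 17.77 FPKM in SCL28-OX, lower as measured and after correction. IAA12, the auxin-response repressor BODENLOS, was at 16.77 and 16.86 FPKM in WT and at 12.77 and 13.35 FPKM in SCL28-OX, lower on both scales too. ARF7, an auxin response factor, went from 9.90 and 9.51 FPKM to 17.00 and 16.27 FPKM, and its 0.72 as measured (limma adjusted p = 1.54e-05) was 0.14 after correction (limma adjusted p = 0.071), or 0.18 with no minimum level (limma adjusted p = 0.0416), on an interval shared with another line.

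WOX5 (AT3G11260, chromosome 3, 3527575 to 3528433) was at 3.81 and 3.33 FPKM in WT and at 2.2 and 3.15 FPKM in SCL28-OX. The values did not overlap, but 1 SCL28-OX library lay close to WT, with means of 3.57 ± 0.339 FPKM and 2.67 ± 0.678 FPKM (SD, n = 2). The log2 change of -0.33 ± 0.13 (SE) missed the threshold (limma adjusted p = 0.0606). Without SCL28-OX replicate 2 it was -0.52 and past it (limma adjusted p = 0.00578), and without SCL28-OX replicate 1 it was -0.14 (limma adjusted p = 0.319). The trend at its 750 bases was -0.36, and the corrected change was 0.03 (limma adjusted p = 0.875). In this single-transcript gene the values stood for about 74 and 54 fragments in WT and 36 and 48 in SCL28-OX, each within 0.1 of a whole number. Other single-transcript regulators lay up to 0.311 (PLT1), 0.453 (PLT2) and 0.447 (UPB1) from a whole number, so the counts are estimates.

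Quiescent centre markers went in both directions. AGL42, a MADS-box gene, was at 6.46 and 5.91 FPKM in WT and at 10.32 and 11.69 FPKM in SCL28-OX, higher by 0.74 in log2 as measured and by 0.81 after correction. MYB56, a repressor of quiescent centre division, was at 11.67 and 11.19 FPKM in WT and at 6.10 and 7.03 FPKM in SCL28-OX, a log2 change of -0.72 and of -0.58 after correction. Neither marker overlapped between genotypes, and their part in the values of WOX5 was not tested.

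Among 12 tested genes linked to WOX5 and the columella stem cells, 5 were higher and 2 lower, with a median of 0.04, and 4 were higher and 6 lower after correction, with a median of -0.11. For all tested genes the shares were 32.7% higher and 33.8% lower as measured, and 22.9% and 22.3% after correction. JKD (JACKDAW), a BIRD zinc-finger factor of quiescent centre and ground tissue, was at 12.01 and 13.66 FPKM in WT and at 32.41 and 32.86 FPKM in SCL28-OX, higher by 1.28 in log2 and by 1.16 after correction. CDF4, which WOX5 represses to hold back columella differentiation, was at 7.59 and 8.45 FPKM in WT and at 5.04 and 5.15 FPKM in SCL28-OX (log2 change -0.56, limma adjusted p = 0.000291). After correction CDF4 was at -0.32 (limma adjusted p = 0.0104), and without WT replicate 2 at -0.24 (limma adjusted p = 0.0722). HAN, a GATA factor that sets domain boundaries in the embryo, went from 4.51 and 4.47 FPKM to 2.80 and 3.22 FPKM (log2 change -0.45, limma adjusted p = 0.00214). Its corrected change of -0.30 (limma adjusted p = 0.0231) missed the threshold without WT replicate 1, WT replicate 2 or SCL28-OX replicate 1. TPL, the co-repressor recruited by WOX5, was higher by 0.75 as measured and by 0.20 after correction, on an interval shared with another line, and CLE40 was listed at 0.

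UPB1 (AT2G47270, chromosome 2, 19411560 to 19412151) was at 85.93 and 89.91 FPKM in WT and at 68.13 and 69.63 FPKM in SCL28-OX. Both SCL28-OX libraries lay below both WT libraries, with means of 68.9 ± 1.06 FPKM and 87.9 ± 2.82 FPKM (SD, n = 2), a ratio of 1.28. The log2 change was -0.35 ± 0.03 (SE; limma adjusted p = 4.94e-05). Genes of its length of 592 bases moved as much, with the trend at -0.41, and 59.6% of the genes in its length bin had a lower change. Corrected for length UPB1 was at 0.07 (limma adjusted p = 0.129), and corrected for length and GC content at 0.14 and called higher (limma adjusted p = 0.00782). Its direction turned with these 2 corrections. Under length correction with no minimum level, a fit chosen after seeing the data, it stayed at -0.08 (limma adjusted p = 0.0978).

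Of 3 peroxidase genes that UPB1 represses, 2 were lower as measured, and 1 was higher after correction for length. Over all tested genes these shares were 33.8% and 22.9%. PRX39 was at 153.04 and 158.69 FPKM in WT and at 135.45 and 137.25 FPKM in SCL28-OX, a log2 change of -0.19 (limma adjusted p = 0.000425) and -0.02 corrected for length (limma adjusted p = 0.514). Its uncorrected call was lost with quantile normalization, at -0.07 (limma adjusted p = 0.0543). PRX40 was at 17.16 and 17.21 FPKM in WT and at 14.93 and 15.43 FPKM in SCL28-OX, a log2 change of -0.17 (limma adjusted p = 0.0123) and 0.06 corrected (limma adjusted p = 0.295). With GC content as well PRX40 was at -0.20 and called lower again (limma adjusted p = 0.0126). Its uncorrected call was lost without WT replicate 1, WT replicate 2 or SCL28-OX replicate 1 (limma adjusted p = 0.0502 to 0.0573). PRX57, the most abundant, was at 579.64 and 566.94 FPKM in WT and at 563.18 and 559.37 FPKM in SCL28-OX, at -0.03 as measured (limma adjusted p = 0.199) and 0.09 after correction (limma adjusted p = 0.00455).

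Markers of several cell types moved beside these changes, and their part in the results was not tested. Their counts stand against 32.7% of all tested genes higher and 33.8% lower as measured, and 22.9% and 22.3% after correction for length. Dividing-cell markers summed to 209 and 202 FPKM in WT and to 178 and 178 FPKM in SCL28-OX, with 5 of 6 lower as measured and 3 of 6 after correction. Root cap markers summed to 183 and 189 FPKM in WT and to 169 and 170 FPKM in SCL28-OX, with 2 of 8 higher and 3 lower, and 1 higher and 3 lower after correction. Root hair markers summed to 352 and 361 FPKM in WT and to 537 and 536 FPKM in SCL28-OX, with 4 of 6 higher and 1 lower, and all 6 higher after correction. Endodermis markers summed to 569 and 568 FPKM in WT and to 575 and 563 FPKM in SCL28-OX, with 1 of 5 higher and 2 lower, and 4 higher and 1 lower after correction. Xylem markers summed to 313 and 315 FPKM in WT and to 334 and 336 FPKM in SCL28-OX, with 4 of 5 higher, and 3 after correction. Shoot markers summed to 57.8 and 56.6 FPKM in WT and to 98.8 and 102 FPKM in SCL28-OX, with 3 of 4 tested genes higher on both scales and LHCB1.1 and LHCB1.2 at 0.25 FPKM or less.

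In the authors' deposited table, q-values were under 0.05 for 4 of the 10 regulators, against 58.2% of the 19442 genes with a q-value. These were PLT1 at 0.0196 and RGF2, RGF3 and UPB1 at 0.000137 each. The authors' deposited table gave RGF1 a q-value of 0.0579 and WOX5 one of 0.106.

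The start regions of RGF1, RGF2 and RGF3 are shown because the 3 genes were lower together as measured. Corrected for length, RGF1 was not called. Each window runs from 250 bases before to 50 bases after the start of the deposited interval, read from the TAIR10.1 genome at chr5:24467130-24467429 (minus strand), chr1:4668193-4668492 (plus strand) and chr2:1277685-1277984 (minus strand). Capitals mark TGTCTC, an auxin response element, or its reverse complement.
RGF1: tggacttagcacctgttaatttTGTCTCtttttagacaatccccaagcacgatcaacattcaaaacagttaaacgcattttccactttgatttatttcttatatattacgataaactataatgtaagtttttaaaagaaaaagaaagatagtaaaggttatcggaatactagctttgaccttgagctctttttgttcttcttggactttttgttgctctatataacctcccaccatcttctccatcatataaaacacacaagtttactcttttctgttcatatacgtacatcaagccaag
RGF2: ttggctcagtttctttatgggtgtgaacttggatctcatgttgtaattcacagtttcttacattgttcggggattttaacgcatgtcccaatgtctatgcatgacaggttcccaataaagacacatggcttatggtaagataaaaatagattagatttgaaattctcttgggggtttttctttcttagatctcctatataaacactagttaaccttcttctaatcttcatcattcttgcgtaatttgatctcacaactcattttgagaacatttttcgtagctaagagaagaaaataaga
RGF3: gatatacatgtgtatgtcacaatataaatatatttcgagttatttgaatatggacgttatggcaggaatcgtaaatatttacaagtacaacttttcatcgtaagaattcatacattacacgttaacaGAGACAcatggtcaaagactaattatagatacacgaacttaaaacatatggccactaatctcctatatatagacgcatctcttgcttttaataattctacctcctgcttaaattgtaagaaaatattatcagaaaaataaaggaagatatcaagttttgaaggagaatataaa
On either strand TGTCTC was found once each in the windows of RGF1, RGF3 and PLT7, and 16.2% of 17840 windows placed in the same way hold it. The motif AACGG, the core of the mitosis-specific activator element bound by MYB3R factors, was found in none of the 10 windows, against 27.6% of all windows. The G-box CACGTG was in none of them either, against 9.1%. Only TGTCTC had a match here, so no matches of different motifs overlapped. A deposited start need not be the start of transcription, and both bounds equalled TAIR10.1 in only 14.4% of lines with 1 locus. In the BBM and PLT7 windows the deposited start falls on an ATG, so these windows may not be promoters.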

How the data were processed

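Libraries were made with a stranded mRNA kit, per the labels' protocols. CASAVA 1.8.2, TopHat2 2.0.13, Cuffdiff 2.2.0 and the TAIR10 build are named in the submitters' processing notes, with no role given, and whether counting used strand was not given in the sources used here. The deposited tables hold FPKM per library, as the authors made them, and the authors' comparison with p-values and q-values, of which only q-values were used. The tables hold 26883 lines. A gene name holding a space had moved the columns of 60 of them, which were dropped, and 1 was not analysed here.

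Genotypes were compared with limma 3.58.1 in R 4.3.3 (lmFit, eBayes with trend, two-sided) on log2(FPKM + 1), over genes whose mean was 1 FPKM or more, with Benjamini-Hochberg adjustment over all genes tested. The test was checked on simulated data. An exact permutation test of 2 against 2 libraries cannot go below 0.333. For the length correction, length was that of the exons of the RefSeq TAIR10.1 annotation inside the deposited interval, and a lowess trend (fraction 0.3) of each library's deviation from the gene mean on log2 length was subtracted. With GC content a loess surface of the same span was used. Depth was derived from the steps of low FPKM values. Alignments used Biopython 1.88.

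The regulators and the lists of related genes and markers were chosen with earlier results of these data known. From each list of over 5 genes, up to 2 rises and 2 falls with the largest log2 change among called, non-overlapping genes were named, and in shorter lists any gene. Alternatives were other pseudocounts, minimum levels, scalings and eBayes settings, a replicate block, corrections for length and GC content, and leaving out each library.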

Additional observations from a re-analysis of the deposited data

How the results depend on the processing

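The alternatives were followed gene by gene for 31 genes, which were the tested regulators, SCL28 and genes named from the lists. Not among them were RGF4, TPST, RGI1, RGI2, RGI5 and the markers other than those of the quiescent centre. Pseudocounts of 0.1 and 5 FPKM, no minimum level, median-ratio scaling and eBayes without trend changed no uncorrected call of the 31 genes. Under length correction a pseudocount of 0.1 FPKM or no minimum level brought RGF1 past the threshold and made 5 regulators lower in place of 4, and no minimum level also brought ARF7 past it. The labels number the libraries 1 and 2 in each genotype, and no label calls them pairs. The deviations of same-numbered libraries correlated at 0.122, a value that both pairs share by construction with 2 libraries a genotype. It cannot show whether the libraries were paired, and the numbers were not taken as pairs. A replicate block gave 5793 genes higher and 6161 lower, and 5 regulators lower, with no call of a regulator changed. WOX5 was called lower with quantile normalization and with robust eBayes, and PRX39 lost its call with quantile normalization. The cause of the differences below was not tested. Genes higher came to 3713 with length and GC correction and 3936 with length correction and a pseudocount of 0.1 FPKM. Genes lower came to 3978 with length correction, 3824 with GC content too, 3908 with the replicate block too, 4024 with annotated length and 3909 with the lower pseudocount. Regulators higher came to 1, UPB1, with length and GC correction. Leaving out single libraries, with and without length correction, gave 3153 to 5322 genes higher, 2834 to 5733 lower and 3 to 6 regulators lower.

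Directions turned as follows, in log2 units. Under length correction PLT3 was at -0.205, WOX5 at 0.0293, UPB1 at 0.0672, PRX40 at 0.0625 and PRX57 at 0.0948, with the same values under the replicate block. With GC content too PLT3 was at -0.203, WOX5 at 0.0696, UPB1 at 0.142 and PRX57 at 0.0418. With annotated length PLT3 was at -0.194, UPB1 at 0.00596, PRX40 at 0.124 and PRX57 at 0.121. Under length correction with no minimum PLT3 was at -0.172, PRX40 at 0.004 and PRX57 at 0.0658, and with the lower pseudocount PLT3 was at -0.233, UPB1 at 0.0881, PRX40 at 0.0699 and PRX57 at 0.105. Quantile normalization put PRX57 at 0.298. Over all fits that left out 1 library, values ran for PLT2 from -0.27 to 0.0875, PLT3 from -0.245 to 0.0987, BBM from -0.146 to 0.0504, WOX5 from -0.515 to 0.217, UPB1 from -0.38 to 0.1, ANT from -0.324 to 0.105, PRX39 from -0.217 to 0.00414, PRX40 from -0.191 to 0.0857 and PRX57 from -0.0464 to 0.108. Annotated length, length correction without a minimum or with the lower pseudocount, and length correction with single libraries left out were chosen after seeing the data. With 1 library left out, the lone library of a genotype is assumed to vary like the other genotype. The limits are 2 libraries a genotype, 1 overexpressing line, few fragments for RGF1 and PLT7, and a trend with length that no replicate separates from genotype.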
